A study of Mus musculus with 192 samples.

Results

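The Schlafen genes Slfn1, Slfn2, Slfn5, Slfn8 and Slfn9 were followed through start-site sequencing of single mouse embryonic fibroblasts (MEFs, a primary stromal cell type cultured from embryos). They are 5 genes of a table in which 11670 genes had at least 1 start site near an annotated start. Members were taken by symbol, and their start sites were the 150 bp windows of the deposited RefSeq table that carry the symbol and lie at most 1000 bp from the annotated start. Of 553094 windows in the table, 77 met this rule, 18 of Slfn2, 4 of Slfn5, 33 of Slfn8 and 22 of Slfn9. Slfn1 had none within that distance. The set was chosen with levels of these genes in view, because Slfn8 and Slfn9 had not risen with other interferon genes, so the levels below are a description and carry no test.

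All 192 cells were C57BL/6 MEFs given interferon-beta, the type I cytokine of the antiviral response, at 100 U/ml for 1 h. The labels call 96 cells naïve and 96 pretreated, without saying what the pretreatment was. The series was made to look for alternative transcription start sites, and each read marks the 5′ end of a polyadenylated RNA. No animal, culture or plate is named, so each group counts as 1 sample, no test between groups was possible, and the intervals below (95%) give counting error alone.

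Cells with at least 10% of the median depth were kept, 92 naïve and 85 pretreated. Their total tags (reads) had a median of 2305628 in naïve cells (range 305066 to 3857034) and 2650490 in pretreated cells (502374 to 13174313). Peaks held 90.1% of naïve and 84.6% of pretreated tags. A peak was listed in a cell only if it reached 20 tags per 1000000 total tags (CPM) by the peak caller's score, about 46.1 tags at the naïve and 53 tags at the pretreated median depth. A gene that is not listed in a cell may therefore still be transcribed there. Of 11 fibroblast markers 10 were listed, with summed levels of 1492 CPM (naïve) and 1868 CPM (pretreated). Most of each sum was Vim (595 and 1088 CPM) and Col1a1 (329 and 377 CPM). Col1a2, Pdgfrb and S100a4 were also higher in pretreated cells. Lower there were Fn1 (287 and 147 CPM), Col3a1 (137 and 95.5 CPM), Pdgfra (9.76 and 2.53 CPM) and Dcn (3.13 and 0.51 CPM). Thy1 was listed in 1 naïve cell alone, and Lum was not listed. None of 6 T or NK cell markers and none of 4 epithelial markers was listed in either group. Of 7 macrophage markers 4 were listed, at 8.35 and 9.34 CPM in sum, and Ptprc, Adgre1 and Tyrobp were at 0. Within that sum Cd68 went from 7.74 to 1.68 CPM and Fcer1g from 0.034 CPM in 1 cell to 7.66 CPM in 6 cells, and Csf1r and Lyz2 had 1 naïve cell each. Of 3 endothelial markers 1 was listed, in the pretreated cells alone, at 2.76 CPM.

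Schlafen proteins share a core domain that binds and, in several members, cuts RNA, tRNA in particular. The short mouse proteins Slfn1 and Slfn2 consist of little more than this core and are known for restraining growth and keeping lymphocytes quiescent, while the long proteins Slfn5, Slfn8 and Slfn9 add a helicase-like part and belong to the branch that includes the human antiviral protein SLFN11. Type I interferon acts through transcription factors that bind the interferon-stimulated response element (ISRE) in the promoters of responsive genes, and Schlafen genes are among the genes known to respond.

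The promoters of the 4 members with start sites are given because their letters can be set beside the levels that follow. Each runs from 250 bases before to 50 bases after the RefSeq start, 5′ to 3′ on the gene's own strand, from RefSeq on GRCm38.p6. Capitals mark an ISRE core, spelled as GAAA and again GAAA with 2 bases of any kind between them, and searched on both strands. On that build Slfn2 is at chr11:83064862-83065161 (+ strand), Slfn5 at chr11:82951852-82952151 (+ strand), Slfn8 at chr11:83020761-83021060 (- strand) and Slfn9 at chr11:82991781-82992080 (- strand).

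Slfn2: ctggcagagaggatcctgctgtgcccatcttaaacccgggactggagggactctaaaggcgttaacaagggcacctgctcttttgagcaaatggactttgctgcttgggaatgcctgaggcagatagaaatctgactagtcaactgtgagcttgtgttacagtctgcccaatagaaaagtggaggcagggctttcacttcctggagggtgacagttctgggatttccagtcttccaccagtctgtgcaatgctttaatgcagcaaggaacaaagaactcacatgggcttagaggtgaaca

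Slfn5: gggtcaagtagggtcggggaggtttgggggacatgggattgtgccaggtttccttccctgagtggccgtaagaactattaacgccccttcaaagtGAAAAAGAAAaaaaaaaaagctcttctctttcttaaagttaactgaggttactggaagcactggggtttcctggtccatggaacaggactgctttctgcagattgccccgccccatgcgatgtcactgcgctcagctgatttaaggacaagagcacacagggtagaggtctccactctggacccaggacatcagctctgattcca

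Slfn8: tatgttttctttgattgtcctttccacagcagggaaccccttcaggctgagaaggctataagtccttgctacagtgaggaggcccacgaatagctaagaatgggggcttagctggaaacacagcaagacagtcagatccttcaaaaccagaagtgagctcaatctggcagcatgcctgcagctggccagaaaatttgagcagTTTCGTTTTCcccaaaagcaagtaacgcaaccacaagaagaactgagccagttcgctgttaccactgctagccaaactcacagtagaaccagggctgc

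Slfn9: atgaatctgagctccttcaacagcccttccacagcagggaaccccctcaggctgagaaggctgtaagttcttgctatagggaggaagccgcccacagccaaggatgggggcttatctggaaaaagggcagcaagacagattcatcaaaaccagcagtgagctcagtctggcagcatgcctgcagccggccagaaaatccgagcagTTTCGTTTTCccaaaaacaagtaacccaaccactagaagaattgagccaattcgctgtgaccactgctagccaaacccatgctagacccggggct

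The ISRE core stood 48 to 39 bases before the start in Slfn8, 45 to 36 bases before it in Slfn9 and 155 to 146 bases before it in Slfn5. The letters were not in these windows of Slfn2 and Slfn1. The bases before the downstream starts of Slfn8 and Slfn9, described below, were not searched. Of 27025 RefSeq promoters of the same length, 943 (3.49%) held the core, and 24 of the 49 matched promoters of the interferon list used below held it (49%). TATAAA was in none of the 5 Schlafen promoters, against 14.2% of all promoters. The ETS-type core TTCCTGG was in Slfn1, Slfn2 and Slfn5 and in 10.2% of all promoters. The Slfn8 and Slfn9 promoters were 80.8% identical over their alignment, whereas the other 9 pairs were 48.5% to 53% identical.

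Slfn2, the short growth-restraining Schlafen, was higher in pretreated cells, where many more cells listed it. It was listed in 11 of 92 naïve cells (12%, exact binomial interval 6.12 to 20.4) and in 74 of 85 pretreated cells (87.1%, 78 to 93.4). Over all kept cells its level ran from 0 through a median of 0 to 93.3 CPM in naïve cells, and from 0 through a median of 50.5 to 395 CPM in pretreated cells. The groups overlapped at the low end, and the highest pretreated cells lay above every naïve cell. Summed over cells, Slfn2 had 1076 naïve tags (5.29 CPM, Poisson interval 4.98 to 5.62) and 19782 pretreated tags (69 CPM, 68 to 69.9), for a log2 ratio of 3.70 (3.62 to 3.79), or 13-fold. With Slfn2-named windows at any distance the log2 ratio was 2.71. Among cells that listed the gene the medians were 53.8 CPM over 11 naïve and 55.3 CPM over 74 pretreated cells, but values under about 20 CPM are missing from both, so these medians do not give the level of a typical cell.

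**Figure D1:**
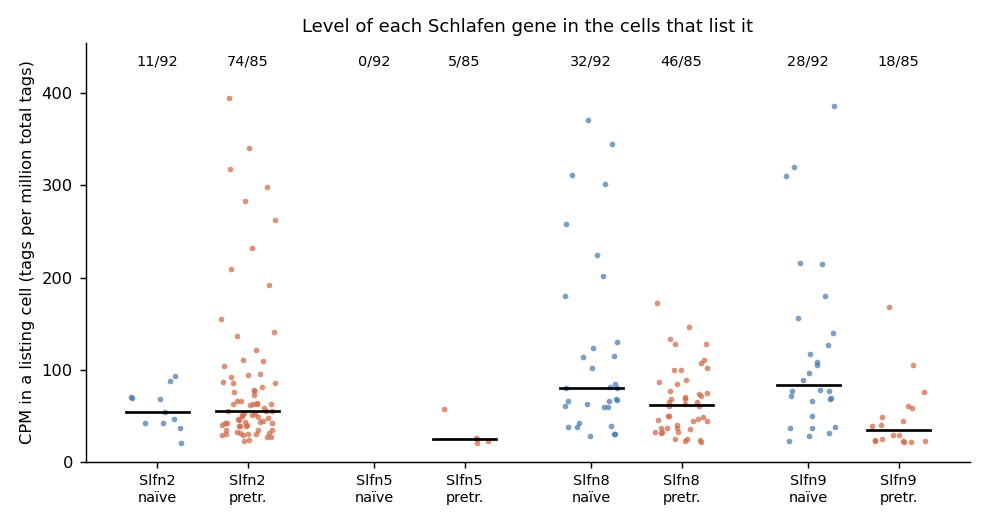
Level of 4 Schlafen genes in each cell that lists them, in CPM (tags per 1000000 total tags), with blue points for naïve and orange points for pretreated cells, a line at the median of the listing cells, and the number of listing cells of all kept cells above. Slfn2 goes from 11 to 74 listing cells with medians of 53.8 and 55.3 CPM, and Slfn9 from 28 to 18 listing cells with medians of 83.3 and 34 CPM.

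The start of Slfn2 was narrow. On mm9, the build of the deposited tables, 92% of naïve and 100% of pretreated tags lay in 14 windows chained over chr11:82878450-82878734, and the median listing cell started 13 bp before the RefSeq start in both groups. The leading window was centred 13 bp before the start in naïve cells (60.3% of tags) and 12 bp before it in pretreated cells (30.7%). These windows overlap almost fully. Each listing cell had 1 peak, so the shares reflect whose peak fell in which window, 5 of 11 naïve and 23 of 74 pretreated cells. They do not measure how tags spread within a cell. Within the limit, 1 naïve cell alone started outside this region, at -297 bp from the RefSeq start, with 86 tags. The focus ratio, a fraction by which HOMER scores how tightly tags gather at the peak's summit, had a median of 0.971 in the 11 naïve peaks (lowest 0.872) and 0.872 in the 74 pretreated peaks (lowest 0.300). Over all peaks of the kept cells its median was 0.974 in naïve and 0.95 in pretreated cells, so pretreated peaks were less focused in general and those of Slfn2 more so.

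Slfn1, the other short member, had 2 named windows, both beyond the distance limit. The one on its strand held 47 tags in 1 naïve cell, and the other, 1342 bp from the start and on the opposite strand, held 58 tags in the pretreated group. Slfn3, Slfn4 and the pseudogene Slfn10-ps had no window of their name, and Slfn14 and the Schlafen-like gene Slfnl1 had none within 1000 bp.

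Slfn5, a long nuclear Schlafen, was listed in 0 of 92 naïve cells and in 5 of 85 pretreated cells (5.88%, exact binomial interval 1.94 to 13.2). In those 5 cells it ran from 20.5 through a median of 24.1 to 57.5 CPM, at or just above the minimum for a peak in most of them. The pretreated sum was 305 tags, 1.06 CPM, of which a single cell gave 39.7%. Without the tags of that cell 0.64 CPM remained, over the same total tags. No fold is given against a group listed at 0. The 4 windows of Slfn5 lay within 29 bp of the RefSeq start, over chr11:82765501-82765690 of mm9. Each of these 5 cells also listed Slfn2 and Slfn8, which were listed in 87.1% and 54.1% of all kept pretreated cells.

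Slfn8, a long member on the same strand as Slfn9 and opposite to Slfn2 and Slfn5, was listed in more pretreated cells but had a lower summed level in them. It was listed in 32 naïve cells (34.8%, interval 25.1 to 45.4) and 46 pretreated cells (54.1%, 43 to 65). Its level over kept cells ran from 0 through a median of 0 to 371 CPM in naïve cells, and from 0 through 24.5 to 172 CPM in pretreated cells. The groups overlapped throughout, and the highest cells were naïve. The sums were 8557 naïve tags (42.1 CPM, 41.2 to 43) and 8892 pretreated tags (31 CPM, 30.4 to 31.7), for a log2 ratio of -0.44 (-0.48 to -0.40). This ratio was -0.12 in odd-numbered and -0.71 in even-numbered cells, so the spread between such subsets was larger than the counting error and than the ratio itself.

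Slfn9, the close relative of Slfn8, was at a lower level in pretreated cells. It was listed in 28 naïve cells (30.4%, 21.3 to 40.9) and 18 pretreated cells (21.2%, 13.1 to 31.4). With windows of its name at any distance, some of which overlap the end of Slfn8, the order of these shares turned, at 39.1% of naïve and 45.9% of pretreated cells. Over kept cells its level ran from 0 through a median of 0 to 386 CPM in naïve cells and from 0 through 0 to 169 CPM in pretreated cells. The groups overlapped, with the cells above 169 CPM all naïve. The sums were 7629 naïve tags (37.5 CPM, 36.7 to 38.4) and 2833 pretreated tags (9.88 CPM, 9.52 to 10.2), for a log2 ratio of -1.93 (-1.99 to -1.86). The ratio was -2.13 in odd-numbered and -1.85 in even-numbered cells. Slfn8 and Slfn9 were listed together in 14 naïve cells and 8 pretreated cells, which is 50% of the naïve and 44.4% of the pretreated cells that listed Slfn9. Over all kept cells Slfn8 was listed in 34.8% of naïve and 54.1% of pretreated cells, below the first share and above the second.

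Slfn8 and Slfn9 each used a pair of separate start regions, and it was the downstream region that was lower in pretreated cells. In Slfn8 a first region lay at the RefSeq start, from 73 bp before it to 128 bp after it (chr11:82834110-82834460, mm9), and a second lay 547 to 780 bp downstream (chr11:82833458-82833840). In Slfn9 they lay 17 to 133 bp (chr11:82805125-82805390) and 659 to 787 bp (chr11:82804471-82804748) downstream of the RefSeq start. The leading naïve window of each gene was in the downstream region, 702 bp from the start in Slfn8 and 693 bp in Slfn9. The deposited RefSeq table places both in an intron, and the deposited GENCODE table places both at a distance of 0 from an annotated transcript start. In GENCODE vM21 (GRCm38) these transcripts start 702 and 692 bp downstream of the first one, with a separate first exon. They have the same first coding base as the transcript from the RefSeq start. Of their 5 exons, 4 begin at the same base as an exon of that transcript, which has 6. Exon ends and the coding sequence beyond its first base were not compared.

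**Figure D2:**
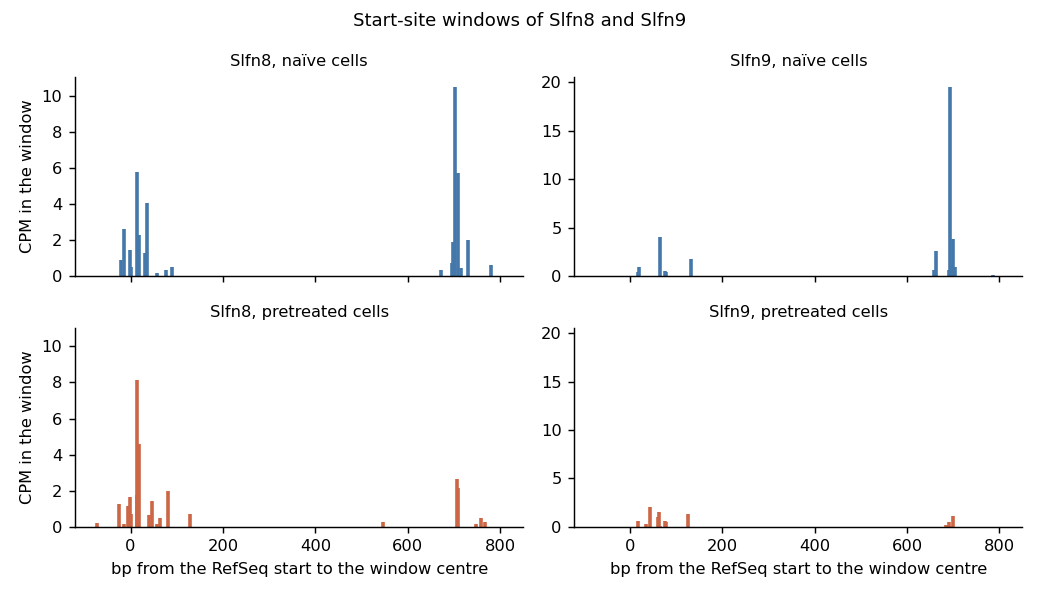
Summed level (CPM) of each start-site window of Slfn8 (left) and Slfn9 (right) against the distance of the window centre from the RefSeq start in bp, in naïve (top) and pretreated cells (bottom), with the same vertical axis for both groups of a gene. Both genes show a group of windows near the RefSeq start and another about 700 bp downstream, and the downstream windows of both are lower in pretreated cells.

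The downstream region of Slfn8 held 52.9% of its naïve tags (4525 of 8557, interval 51.8 to 53.9) and 19.1% of its pretreated tags (1701 of 8892, 18.3 to 20). In the cells that listed it, its level ran from 21.5 through a median of 80.7 to 301 CPM in 18 naïve cells, and from 25.7 through 40.7 to 66.2 CPM in 14 pretreated cells. The pretreated cells fell inside the lower part of the naïve range. Summed, the region was at 22.3 CPM (naïve) and 5.93 CPM (pretreated), for a log2 ratio of -1.91 (-1.99 to -1.83).

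The region at the RefSeq start of Slfn8 did not have this pattern. It ran from 27.9 through a median of 48.5 to 371 CPM in 21 naïve cells and from 20.8 through 60.4 to 141 CPM in 41 pretreated cells. The pretreated cells were more numerous and had the higher median, while the highest cells were naïve. The sums were 19.8 CPM and 25.1 CPM, a log2 ratio of 0.34 (0.28 to 0.39), which was -0.04 when cells were scaled by the median of ratios.

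The downstream region of Slfn9 held 78.4% of its naïve tags (5979 of 7629, interval 77.4 to 79.3) and 19.5% of its pretreated tags (552 of 2833, 18 to 21). It ran from 22.9 through a median of 86.3 to 386 CPM in 21 naïve cells and from 21 through 22.1 to 75.5 CPM in 6 pretreated cells. Of the 6 pretreated values 4 lay close to the minimum for a peak. The sums were 29.4 CPM and 1.92 CPM, a log2 ratio of -3.93 (-4.06 to -3.81).

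At the RefSeq start of Slfn9 the level ran from 31 through a median of 83.3 to 216 CPM in 8 naïve cells and from 22 through 29.6 to 169 CPM in 13 pretreated cells. The sums were 8.12 and 7.95 CPM, a log2 ratio of -0.03 (-0.12 to 0.06). Its sign rested on few cells: the log2 ratio was 1.13 in odd-numbered cells, -0.60 in even-numbered cells and 0.13 without the highest cell of each group. The downstream log2 ratios kept their sign in the same subsets, at -1.52 and -2.24 for Slfn8 and -3.99 and -3.81 for Slfn9 in odd- and even-numbered cells. With windows at a deposited distance within 100 bp alone, the log2 ratio of the gene was 0.34 for Slfn8 and 0.08 for Slfn9. For Slfn8 these were the windows of its start region, so its value is the same one given again. The sign of these values is no firmer than that of the start regions.

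Most cells listed 1 of the regions and not both. Of the 32 naïve cells with Slfn8, 14 listed the start region alone, 7 both and 11 the downstream region alone, and of the 46 pretreated cells 32, 9 and 5 did. For Slfn9 the numbers were 7, 1 and 20 of 28 naïve cells and 12, 1 and 5 of 18 pretreated cells. The downstream region was thus listed by 56.2% of naïve and 30.4% of pretreated cells with Slfn8 (intervals 37.7 to 73.6 and 17.7 to 45.8), and by 75% and 33.3% of those with Slfn9 (55.1 to 89.3 and 13.3 to 59). With each listing cell weighted equally, the mean downstream share of tags was 47.5% and 19.7% for Slfn8 and 72.9% and 30.5% for Slfn9.

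**Figure D3:**
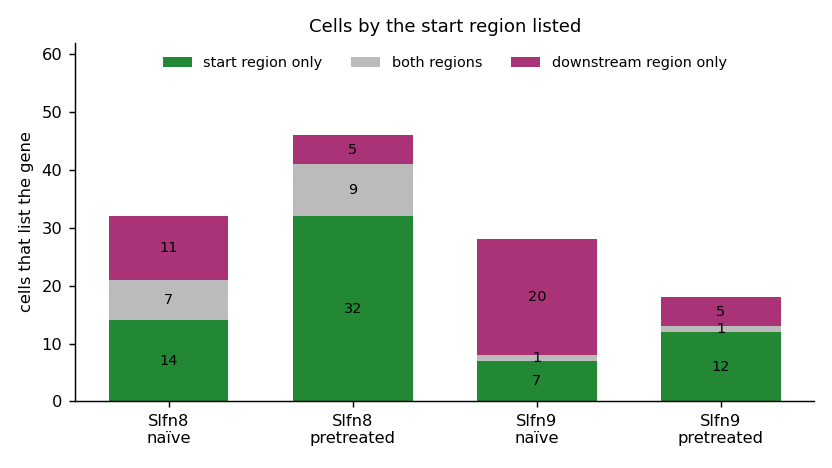
Number of cells that list Slfn8 or Slfn9, split by the start region listed: start region alone (green), both (grey) or downstream region alone (magenta), from 0. Cells with the downstream region alone number 11 naïve and 5 pretreated for Slfn8, and 20 naïve and 5 pretreated for Slfn9.

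The same downstream share was taken for all genes that had 1000 tags or more in each group and at least 10% of tags 300 bp or more downstream in either group, as a background chosen after the Slfn8 and Slfn9 windows had been seen. Both genes fell by at least 20 percentage points, and 22.8% of 883 such genes did so, while 8.95% rose by that much. The median change over the 883 genes was -6.11 points. Slfn8 changed by -33.8 points, with 92 genes lower, and Slfn9 by -58.9 points, with 27 genes lower. A lower downstream share in pretreated cells was thus common among these genes, and Slfn9 lay toward the far end of the range. Since the share and the summed level come from the same tags and the genes were chosen on the level, the share is a description too.

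**Figure D4:**
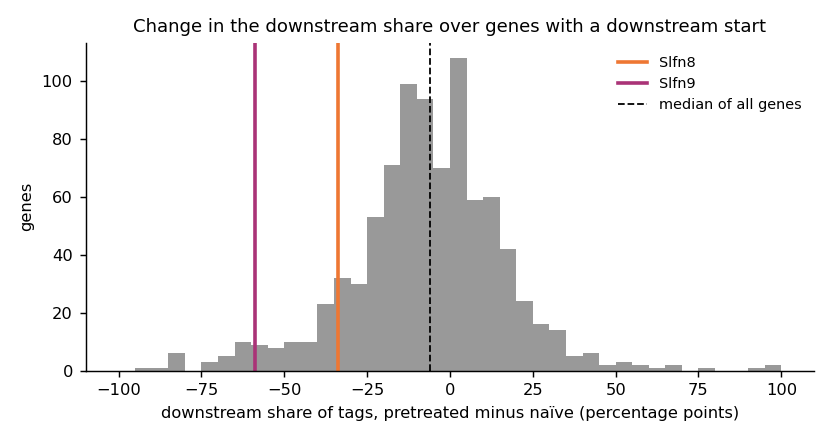
Histogram of the change in downstream share of tags (pretreated minus naïve, in percentage points) over 883 genes, in bins of 5 points. Slfn8 stands at -33.8 and Slfn9 at -58.9 points, left of the median of all genes at -6.11 points (dashed).

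The downstream first exons of the pair are nearly the same sequence. Over the first 150 bases of the GENCODE transcripts, 147 were identical between Slfn8 and Slfn9 (98%), against 80.1% at the RefSeq starts. No 50-base stretch within these 150 bases was shared exactly with another gene's transcript for any of the members. Shorter stretches, and bases past the first 150, were not searched. With 147 of 150 bases identical, the downstream exons hold long runs that are the same in both genes. The search therefore does not show how reliably a tag could be assigned to 1 gene of the pair. Read length and aligner settings are not given in the sources used here, and how far tags could move between both genes was not tested. In naïve cells 7 listed both downstream regions, which is 38.9% of the 18 with that of Slfn8 and 33.3% of the 21 with that of Slfn9. Over all kept naïve cells, 22.8% listed the downstream region of Slfn9 and 19.6% that of Slfn8. The start region of Slfn8, less alike in sequence, was also listed with the downstream region of Slfn9 in 7 naïve cells. In pretreated cells 1 listed both downstream regions, of 14 with that of Slfn8 and 6 with that of Slfn9.

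The interferon list, 64 genes known to respond to interferon, gives the setting for these levels. At 50 CPM or more in either group 34 of them were measured, of which 33 were higher and 1 lower in pretreated cells, with a median log2 ratio of 2.54. Of all 2241 genes that passed, 1499 were higher (66.9%) and 742 lower, with a median of 0.38. A gene under 50 CPM in 1 group passes only if it is higher in the other. These counts and medians are therefore partly set by the filter. Many list genes, Bst2 among them, passed through their pretreated level alone, and lower list genes under 50 CPM in both groups were left out. The antiviral membrane protein gene Bst2 was at 26.7 and 1141 CPM (log2 ratio 5.42), and B2m, the light chain of MHC class I, at 251 and 2288 CPM (3.19). The deISGylase gene Usp18 was at 326 and 1003 CPM (1.62) and Ifit3, an RNA-binding antiviral effector, at 158 and 448 CPM (1.51). Irf7, a transcription factor of the interferon loop, was at 0.69 and 34.9 CPM (5.66), and the ubiquitin-like Isg15 was at 5.31 and 4.37 CPM (-0.28), both under the 50 CPM limit.

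Of the Schlafen genes Slfn2 alone passed 50 CPM, and only through its pretreated level (5.29 CPM naïve, 69 CPM pretreated). Its direction at that limit was thus set by the filter. It was one of the 25.5% of genes at least 2-fold higher, while 11.2% were at least 2-fold lower. With a limit of 5 CPM, chosen after the data were seen, Slfn2, Slfn8 and Slfn9 passed. Among the 6626 genes at that limit 33% were at least 2-fold higher and 13.3% at least 2-fold lower, Slfn2 being among the former and Slfn9 among the latter. On the percentile scale of these 6626 genes' log2 ratios, Slfn2 stood at 95.4, Slfn8 at 22.6 and Slfn9 at 6.07. Of the interferon list 58 genes passed 5 CPM, 50 higher and 8 lower, with 4 at least 2-fold lower and a median of 2.16. Of all 6626 genes 4364 were higher (65.9%) and 2262 lower, with a median of 0.46. The contrast is the one that chose the members, so nothing is read from these positions. Median-of-ratios scaling lowered each log2 ratio by 0.38 and changed the balance of all genes called at 50 CPM, from 69.5% higher among called genes to 48.1%.

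**Figure D5:**
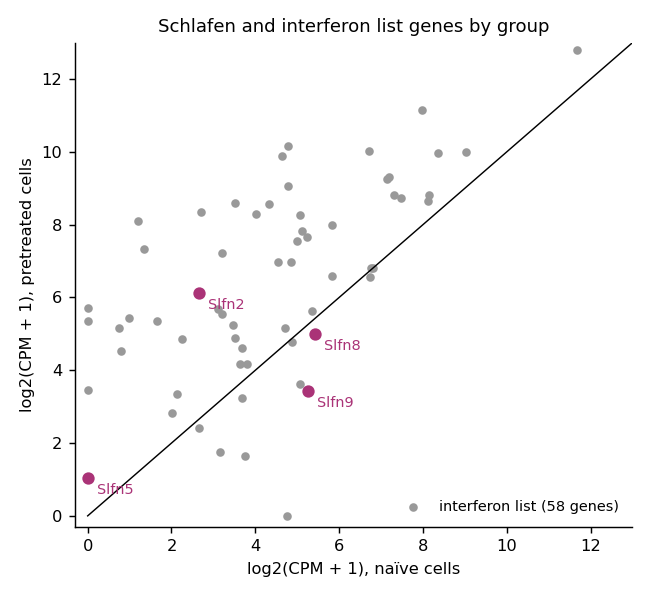
Level in pretreated against naïve cells, log2(CPM + 1), for 58 genes of the interferon list with at least 5 CPM in either group (grey) and 4 Schlafen genes (magenta), with the line of equal levels. Slfn2 and Slfn5 lie above the line, Slfn8 and Slfn9 below it.

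Genes that flank the Schlafen cluster were low. Of 10 such genes 6 were listed and none reached 50 CPM, with summed levels of 65.1 (naïve) and 70 CPM (pretreated). Ap2b1, an adaptor subunit of clathrin coats, was at 26.9 and 27.7 CPM, and Taf15, an RNA-binding protein gene, at 19.7 and 17 CPM. The DNA ligase gene Lig3 was at 5.64 and 15.7 CPM (log2 ratio 1.48), Rffl at 1.53 and 0.53 CPM, and Nle1 at 0 and 0.40 CPM. Of 10 proliferation genes, listed because Slfn1 and Slfn2 are named for growth control, 7 passed 50 CPM, 2 higher and 5 lower, where 66.9% of all genes were higher. One was at least 2-fold higher, the replication helicase subunit Mcm6 at 13.9 and 138 CPM (log2 ratio 3.31), and one at least 2-fold lower, the topoisomerase Top2a at 54.2 and 16.7 CPM (-1.70). Of 5 other effectors that act on nucleic acid or tRNA 3 passed. Samhd1, a dNTPase, was at 52.8 and 113 CPM (1.10), Zc3hav1, which binds CpG-rich viral RNA, at 65.5 and 88.8 CPM (0.44), and the kinase gene Eif2ak2 at 106 and 92.9 CPM (-0.19).

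From cell to cell within a group, the highest correlations with other genes were weak. In pretreated cells the gene most like Slfn8 over 85 cells was Rsad2, the antiviral enzyme viperin (Spearman rho 0.47 on log2(CPM + 1)), before Tubb6 and Birc5 (0.43 and 0.41). For Slfn2 over the same cells it was Usf1 (0.41), then Dab2 and Arl6ip5 (both 0.36). In 92 naïve cells Snai2, Hoxc10 and Dph6 were nearest to Slfn8 (0.43, 0.37 and 0.36) and Ola1, Trex1 and Smim14 to Slfn9 (0.35, 0.34 and 0.34). These are weak values from sparse data, chosen as the highest of 2607 naïve and 3742 pretreated candidate genes, and the values of a cell share its library and depth.

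Naïve cells that listed a member were shallower than their group, and pretreated cells differed by member. In naïve cells the median total tags were 1614928 with Slfn2, 1979963 with Slfn8 and 2222637 with Slfn9, against 2305628 in the group. In pretreated cells the group median was 2650490. Cells with Slfn2 (2684275) and Slfn9 (2826069) were above it, and cells with Slfn8 (2556934) and Slfn5 (1904994) below it. Without the 16 naïve and 2 pretreated cells under 1122993 total tags, Slfn2 was listed in 8 of 76 naïve and 73 of 83 pretreated cells, Slfn8 in 28 and 45, and Slfn9 in 22 and 18.

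The windows nearest the 1000 bp limit were each listed by 1 cell. Just inside it, Slfn9 had 16 tags at 787 bp in naïve cells and Slfn2 had 627 tags at 413 bp, on the opposite strand, in pretreated cells. Just outside it, a Slfn9 window 1028 bp before the start held 1328 naïve tags and 0 pretreated tags, and a Slfn2 window at 1055 bp held 67 pretreated tags.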

How the data were processed

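Single-cell start-site libraries of 96 naïve and 96 pretreated MEFs were used. The submitters' processing notes name Bowtie2, HOMER and mm9; versions, settings, read filters and duplicate handling are not given in the sources used here. HOMER findPeaks called the peaks cell by cell in start-site style, per the file headers (width 150 bp, at least 300 bp apart, at least 200 tags per 10000000, 2-fold over the local 10000 bp at a Poisson p of 1e-04). The authors deposited signal, which is the number of tags in a peak per 10000000 tags of its cell. The deposited focus ratio is a fraction from 0 to 1. Distances are as deposited, from the window centre to the nearest RefSeq or GENCODE start, except for the positions given for Slfn8 windows. Those were recomputed from a single RefSeq start of the gene (chr11:82834313, mm9), and several differ from the deposited distance. The Slfn8 windows given at 702, 780 and 128 bp are deposited at RefSeq distances of 614, 692 and 40 bp.

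Signal was turned back into tags with the header totals, and all 1082504 peaks gave whole tags within 0.1. No molecular identifiers are mentioned, so a tag is a read. Peaks on the gene's strand that start within 2 bp of a member's window were summed over the 177 cells with at least 230562.75 tags and divided by total tags. Log2 ratios are pretreated over naïve, 0.5 tag being added to both sums, with exact intervals (scipy 1.17.1). Windows up to 150 bp apart were chained into regions. A pair of deposited matrices, each with 192 value columns without names, was not used here. Each group is 1 sample, so no test was run. The code was tested on simulated data.

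The members and lists were chosen with earlier results of these data known, and the split into start regions, its background and the 5 CPM limit after the windows were seen. Members are all named; of the interferon list a few set genes are, and otherwise the 3 genes most correlated with a member listed in at least 20 cells of a group, among genes listed in 20% to 95% of cells. Genes of the smaller lists were named after their values were seen. Some listed genes are not reported here by name.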

Additional observations from a re-analysis of the deposited data

Results flagged for a closer look

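Windows that carry a Schlafen name but are farther than 1000 bp from the start, or on the opposite strand, also held tags, and their number is given as naïve and pretreated sums. Slfn9-named windows that overlap the last exons or the end of Slfn8 held 1348 tags in 7 cells and 1969 tags in 23 cells, so part of what the table names Slfn9 lies over its neighbour. Other distant Slfn9-named windows held 2929 tags in 8 naïve cells and 73 tags in 1 pretreated cell. Distant Slfn8-named windows held 477 and 786 tags.

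Distant Slfn2-named windows held 1320 tags in 4 cells and 2367 tags in 17 cells, of which 397 and 1993 tags were in its exon and 3′ UTR. Windows on the strand opposite to Slfn2 held 152 and 1583 tags, in 2 and 4 cells. A distant Slfn5-named window held 51 tags in 1 pretreated cell and a distant Slfn1-named window 47 tags in 1 naïve cell. Windows opposite to Slfn14 held 1077 tags in 8 naïve cells and 164 tags in 1 pretreated cell. Distant windows named for Slfnl1, which lies on chromosome 4, held 4539 and 7149 tags in 25 and 28 cells.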

How the results depend on the processing

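No value here comes from a test, so a change is set against the counting interval, which is narrow. The log2 ratios of Slfn2, Slfn8 and Slfn9 were 3.53, -0.61 and -2.10 scaled to sense promoter tags, 3.32, -0.82 and -2.30 by median of ratios, 3.46, -0.22 and -1.84 as mean CPM per cell, 4.0, -0.12 and -2.13 in odd-numbered cells and 3.44, -0.71 and -1.85 in even-numbered cells. With windows at any distance they were 2.71, -0.40 and -1.78, and within 100 bp 3.82, 0.34 and 0.077, the only setting tried in which Slfn8 and Slfn9 changed sign. Without the tags of the highest cell of each group, but over unchanged total tags, Slfn2 was at 4.07 and Slfn9 at -2.0. Slfn5 in pretreated cells was at 1.74 CPM scaled to sense promoter tags and 1.77 as mean per cell. It was at 0.77 in odd-numbered and 1.26 in even-numbered cells, and 1.24 at any distance and with GENCODE names. Without the tags of its highest cell it was at 0.64, again over unchanged total tags. The log2 ratio of the start region was -0.041 by median of ratios for Slfn8, and 1.13 in odd-numbered cells and 0.13 without the highest cell for Slfn9. Downstream shares, naïve then pretreated, were 47.5% and 19.7% for Slfn8 and 72.9% and 30.5% for Slfn9 as means over listing cells. They were 50.6% and 19.1%, and 92.3% and 25.4%, in odd-numbered cells, 55.1% and 19.1%, and 64.9% and 16.7%, in even-numbered cells, and 51.1% and 14.9%, and 81% and 19.2%, without the highest cell of each region. With windows at any distance Slfn9 was listed in 39.1% of naïve and 45.9% of pretreated cells, the opposite order to the main shares. Other shares of cells stayed within their intervals, but thinning cannot remove a listed peak and so changed shares only by leaving out shallow cells.

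The share in the leading window, naïve then pretreated, for Slfn2, Slfn8 and Slfn9 was 60.3% and 30.7%, 25% and 26.2%, and 52.1% and 21.2%. Chained it was 92% and 100%, 52.9% and 80.9%, and 78.4% and 80.5%. As a mean over listing cells it was 45.5% and 31.1%, 16.6% and 25.4%, and 39.3% and 13.8%. At any distance it was 38.5% and 27.4%, 23.6% and 24%, and 33.4% and 12.3%. The window that led changed too: at any distance that of naïve Slfn2 lay 1323 bp from the start, in 1 cell, and as a mean over cells that of pretreated Slfn9 was in the downstream region. In odd-numbered cells it was 35.2% and 32.8%, 22.7% and 27.2%, and 46.9% and 30.3%, and in even-numbered cells 83.7% and 29.2%, 35.4% and 25.3%, and 57.2% and 31.3%.

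Genes at least 2-fold higher and lower numbered 571 and 251, but 4745 and 2220 without a filter, 2184 and 881 from 5 CPM, 138 and 104 from 200 CPM, 165 and 111 at 4-fold, 325 and 350 by median of ratios and 646 and 404 scaled to sense promoter tags. The interferon list had a median of 2.96 from 200 CPM (0 lower), 2.16 from 5 CPM (50 higher, 8 lower), 2.16 by median of ratios (3 lower), 2.08 at any distance (6 lower), 3.0 in odd-numbered (2 lower) and 2.30 in even-numbered cells (2 lower), and 2 lower as mean CPM. The cause of these changes was not tested. No paired analysis was possible because nothing was tested and cell numbers carry no pairing between groups. Peaks under 20 CPM in a cell are not listed, which limits every level given here.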
